A study of Mus musculus with 2 samples.

Results

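Chemokines are small secreted proteins that guide migrating leukocytes, and their receptors sit on the cells that follow them. The genes described here are the protein-coding mouse genes whose symbols begin with Ccl, Cxcl, Ccr, Cxcr, Cx3c or Xc and go on to a number. The rule took 57 genes, 37 ligands and 20 receptors, of 21474 protein-coding genes and 43346 Ensembl genes in the tables. The annotation holds 64 genes that fit the rule, and the other 7 lie on unplaced scaffolds and have no row in the tables. The RNA came from small intestine of adult C57BL/6J mice, an inbred strain, at 8 weeks of age, with males and females pooled. There were 2 libraries, numbered as biological replicates 1 and 2 of 1 group with no treatment, and no segment of the intestine was named. RNA longer than 200 nt was selected for poly(A), depleted of ribosomal RNA and read in stranded pairs of 76 nt. With 1 group of 2 replicates no test between groups exists, so levels are given for each replicate, the mean ± SD covers both, and no p-value is given.

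Most chemokines are secreted and held by the extracellular matrix, and they bind receptors with 7 membrane passes that signal through Gi-type G proteins, arrestins and kinases. Ligands are classed by the spacing of the first cysteines of the mature protein, as CC, CXC, CX3C and C chemokines, and receptors are named after the class they bind. In the small intestine, Ccl25 made by the epithelium draws lymphocytes that carry Ccr9, Ccl28 draws antibody-secreting cells that carry Ccr10, and Ccl20 draws cells that carry Ccr6 to lymphoid follicles.

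The cysteine spacing that gives the classes their names could be read from the coding sequences. One sequence is shown for each class, with 2 CC genes since Ccl5 and Ccl25 led the levels, and with Cxcl1 as an example of the neutrophil-attracting CXC ligands. Each line is spliced coding sequence from GENCODE M21 (GRCm38), 5′ to 3′ on the coding strand, and the capitals mark the first cysteine codons.
Ccl5: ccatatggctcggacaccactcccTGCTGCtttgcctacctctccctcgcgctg
Ccl25: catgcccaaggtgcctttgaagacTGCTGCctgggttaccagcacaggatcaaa
Cxcl12: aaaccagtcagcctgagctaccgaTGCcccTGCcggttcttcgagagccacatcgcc
Cxcl1: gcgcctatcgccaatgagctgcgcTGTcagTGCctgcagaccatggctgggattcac
Cx3cl1: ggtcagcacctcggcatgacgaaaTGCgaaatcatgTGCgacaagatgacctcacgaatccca
Xcl1: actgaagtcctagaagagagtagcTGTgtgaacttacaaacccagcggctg
The codons touched each other in Ccl5 and Ccl25, stood 1 codon apart in Cxcl12 and Cxcl1, and stood 3 codons apart in Cx3cl1, while Xcl1 had a single cysteine codon there. Adjacent codons were found in 22 of the 23 CC ligands, Ccl27a being the exception for its transcript Ccl27a-202, and the spacing of 1 codon in 12 of the 12 CXC ligands. The codons gagctgcgc before the first cysteine of Cxcl1, for glutamate, leucine and arginine, mark the CXC ligands of neutrophils, and such a triplet preceded the first cysteine in Cxcl1, Cxcl2, Cxcl3, Cxcl5 and Cxcl15. Most ligands are short, with 91 codons before the stop in Ccl5 and 89 in Cxcl12. Cx3cl1 with 395 codons and Cxcl16 with 246 codons encode the chemokines that are made as membrane proteins.

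The libraries held 45472946 and 45822403 expected counts in replicates 1 and 2, and 3 counts, taken as the limit of a count of 0, were 6.6e-06% and 6.55e-06% of them. Levels are in the authors' TPM, which corrects for length and sums to a fixed total, so a large share of RNA from one source leaves less for all others. The 14 exocrine pancreas genes took 248927 TPM (24.9% of TPM) in replicate 1 against 1751 TPM (0.175%) in replicate 2, and 10 stomach genes to 19753 and 51.5 TPM. All 14 pancreas genes, led by Ctrb1, Cela2a and Clps, were higher in replicate 1, and none was at 0 in both. The median protein-coding gene with a mean TPM of at least 1 lay 0.67 log2 units higher in replicate 2, and still 0.30 higher with TPM rescaled without the pancreas and stomach genes. Ratios below are centred on it. The labelled tissue was present in both libraries. The 7 enterocyte genes in the table, led by Apoa4, Alpi and Anpep, summed to 6708 and 10294 TPM, 5 Paneth cell genes to 2231 and 9820 TPM, and 6 goblet cell genes to 8781 and 18339 TPM. In bulk tissue, fewer cells of a type and less RNA per cell cannot be told apart.

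Of the 57 chemokine genes, 32 (56.1%) had at least 1 TPM in both replicates, which is called detected here, against 49.3% of all protein-coding genes. At a minimum of 5 TPM the order turned round, with 14 of 57 (24.6%) against 30.4% of all protein-coding genes. The 32 detected genes comprised 22 of 37 ligands and 10 of 20 receptors. A further 5 genes had a mean of at least 1 TPM without reaching it in both replicates, and 20 stayed below that mean. Ccl26, Ccl27b and Cxcr1 had 0 counts in both replicates, as did 22.0% of all protein-coding genes. The effective length of Ccl26, the bases over which a fragment could start, was only 46.5 and 64.6 nt, and 3 counts would have stood for 1.27 and 1.18 TPM there. Just inside the limit were Ccr1 at 1.04 and 1.00 TPM and Cxcl1 at 2.22 and 1.00 TPM, and just outside it Ccl9 at 0.95 and 3.02 TPM and Ccr6 at 0.94 and 2.86 TPM.

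Ligand RNA was far more abundant than receptor RNA. In replicates 1 and 2 the 37 ligands summed to 1167 and 1180 TPM (1174 ± 8.82 TPM, SD, n = 2), and the 20 receptors to 45.01 and 65.4 TPM (55.2 ± 14.4 TPM). The ligand sum was thus 25.9 times the receptor sum in replicate 1 and 18.0 times in replicate 2 (log2 ratio 4.43 ± 0.37). One ligand, Ccl5, made up 74.2% and 57.5% of the ligand sum. Without it the ligands summed to 301 and 502 TPM, and the 5 highest ligands together took 88.1% and 86.1%. Receptor RNA was less concentrated, with 32.9% and 32.2% in Ccr10 and 64.3% and 61.2% in the 3 highest receptors.

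**Figure D1:**
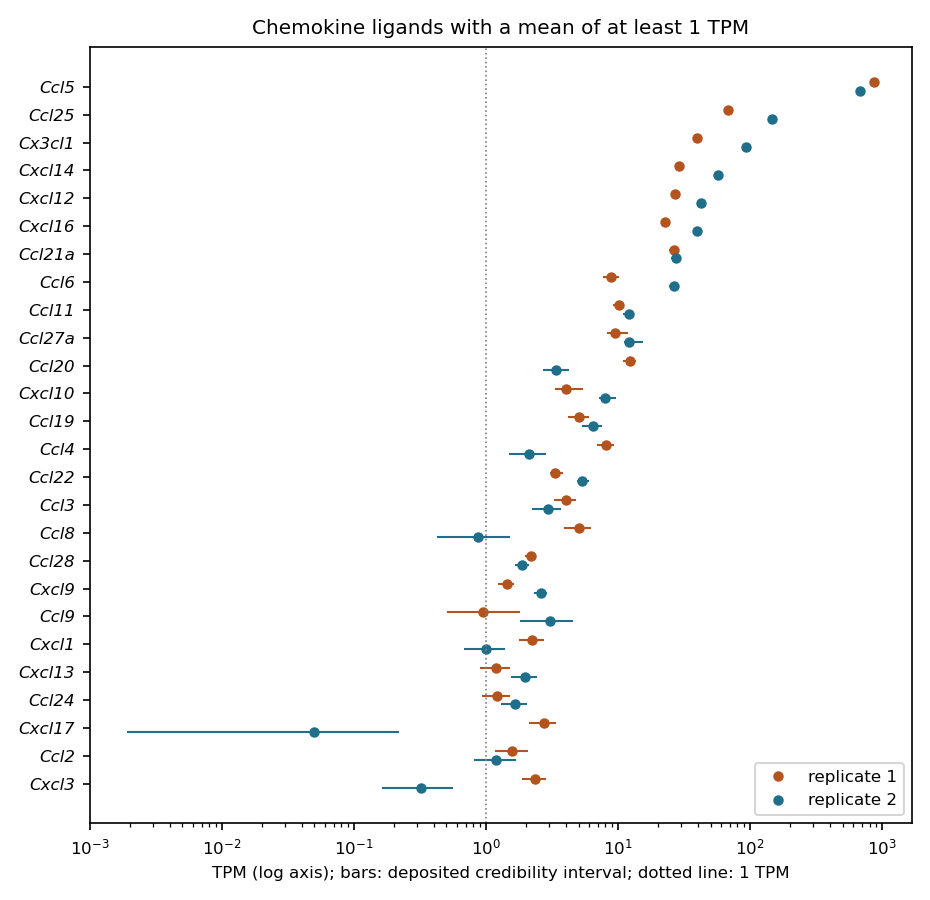
Levels of the 26 chemokine ligands with a mean of at least 1 TPM, 1 row per gene, on a log TPM axis. Points are the replicates, horizontal bars their deposited credibility intervals and the dotted line 1 TPM. Ccl5 stands apart at 867 and 678 TPM, and Ccl8, Cxcl3 and Cxcl17 show the replicates far from each other.

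Among the CC ligands that attract inflammatory cells, Ccl5 stood out. Ccl5, which T cells and natural killer cells secrete and which attracts T cells, monocytes and eosinophils (ENSMUSG00000035042.2, chromosome 11, 83525778 to 83530518, minus strand, GRCm38), held 867 and 678 TPM in replicates 1 and 2 (772 ± 133 TPM, SD, n = 2). These levels rested on 13102 and 8415 counts, and by mean TPM the gene ranked 144 of 21474. The deposited credibility intervals, 845 to 875 TPM and 657 to 686 TPM, did not overlap. The tables do not state the level of these intervals, which cover only the error of quantification within a library. Its relatives Ccl4 and Ccl3, attractants of macrophages and T cells, were at 8.02 and 2.12 TPM and at 4.00 and 2.92 TPM. Ccl8, which in mice acts on Ccr8, was at 5.0 and 0.87 TPM, and Ccl2, the main attractant of monocytes, at 1.57 and 1.18 TPM. Ccl12 and Ccl7, further monocyte attractants, stayed under 1 TPM, at 0.72 and 0.32 TPM and at 0.73 and 0.26 TPM. Of these 7 genes, 4 were detected. Intervals of Ccl5, Ccl4 and Ccl8 lay apart with replicate 1 above. The intervals of Ccl3, Ccl2, Ccl12 and Ccl7 overlapped between replicates. Of all protein-coding genes with a mean of at least 1 TPM, 6.09% had intervals apart with replicate 1 above. Ccl12 and Ccl7 did not reach that mean.

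The ligands known for homing to gut and skin were led by Ccl25. Ccl25, the epithelial ligand of Ccr9 in small intestine and thymus (ENSMUSG00000023235.9, chromosome 8, 4325210 to 4360020, plus strand), was at 67.3 and 147 TPM, from 2793 and 4810 counts. Ccl20, which epithelium over lymphoid follicles makes (ENSMUSG00000026166.10, chromosome 1, 83116766 to 83119167, plus strand), was at 12.3 and 3.39 TPM, from 358 and 79 counts. These genes thus went opposite ways, Ccl25 higher in replicate 2 and Ccl20 higher in replicate 1, with intervals apart in both cases. Ccl27a, known as the skin ligand of Ccr10, was at 9.39 and 11.96 TPM, and Ccl28, its mucosal counterpart, was only at 2.19 and 1.88 TPM. Most of the Ccl27a level lay in transcripts with retained introns. Its highest coding transcript, Ccl27a-202, was at 0 and 0.96 TPM, so the gene levels do not rank the coding RNA of these ligands. Intervals of Ccl27a and Ccl28 overlapped between replicates.

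Membrane-bound and stromal ligands followed Ccl25 in abundance. Cx3cl1, or fractalkine, a membrane-anchored ligand (ENSMUSG00000031778.8, chromosome 8, 94772009 to 94782427, plus strand), was at 39.2 and 92.0 TPM. Cxcl16, the other ligand made as a membrane protein (ENSMUSG00000018920.7, chromosome 11, 70453983 to 70459984, minus strand), was at 22.6 and 39.3 TPM. Both exceeded every receptor in both replicates. Cxcl14, a ligand that epithelia make without inflammation (ENSMUSG00000021508.10, chromosome 13, 56288643 to 56296551, minus strand), was at 28.7 and 56.5 TPM. Cxcl12, the stromal ligand of Cxcr4 that retains leukocytes in tissues (ENSMUSG00000061353.7, chromosome 6, 117168535 to 117181367, plus strand), was at 27.0 and 42.7 TPM. All 4 were higher in replicate 2 by TPM, with intervals apart, as were 75.0% of all protein-coding genes with a mean of at least 1 TPM. Cxcl17, a mucosal secreted protein whose place among the chemokines is disputed, went the other way, with 73 counts (2.73 TPM) in replicate 1 and 1 count (0.05 TPM) in replicate 2. Replicate 1 held 98.6% of these 74 counts (95% exact binomial interval 92.7% to 99.97%, counting error only).

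Ligands of lymphoid tissue were found at moderate levels. Ccl21a, which lymphatic vessels and lymphoid stroma make to draw cells with Ccr7 (ENSMUSG00000094686.1, chromosome 4, 42772860 to 42773993, minus strand), was at 26.3 and 27.4 TPM. Ccl19, the other Ccr7 ligand, was at 5.02 and 6.42 TPM, and Cxcl13, which organises B cell follicles, at 1.18 and 1.97 TPM. The replicates' intervals overlapped for Ccl21a and Ccl19 but not for Cxcl13. Ccl21b was at 0.22 and 0.90 TPM. These levels are uncertain where near copies exist. All 76-base words of the Ccl21b transcripts, 98% of those of Ccl27b, 60.9% of those of Ccl21a, 45% of those of Ccl19 and 32.9% of those of Ccl27a also occur in another annotated gene, so reads could be split between copies. No such word was found for 43 of the 57 genes.

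Eotaxins and ligands of type 2 immunity formed a small group. Ccl11, eotaxin, which draws eosinophils (ENSMUSG00000020676.2, chromosome 11, 82057823 to 82062955, plus strand), was at 10.1 and 12.1 TPM and Ccl24, a second eotaxin, at 1.21 and 1.66 TPM. Ccl22, a ligand of Ccr4 made by dendritic cells and macrophages, was at 3.33 and 5.32 TPM. The group of 6 had 3 members detected and summed to 15.2 and 20.3 TPM. Ccl6 and Ccl9, CC ligands known from mouse myeloid cells, were at 8.83 and 26.3 TPM and at 0.95 and 3.02 TPM. Of the interferon-induced ligands of Cxcr3, Cxcl10 was at 4.04 and 7.92 TPM and Cxcl9 at 1.44 and 2.62 TPM. Both were higher in replicate 2, with intervals apart.

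The 5 CXC ligands that carry the glutamate-leucine-arginine codons, of which Cxcl1, Cxcl2, Cxcl3 and Cxcl5 draw neutrophils through Cxcr2, were scarce and summed to 6.35 and 1.68 TPM in replicates 1 and 2. Cxcl1 was at 2.22 and 1.00 TPM, Cxcl3 at 2.34 and 0.32 TPM, Cxcl5 at 1.3 and 0.23 TPM, and Cxcl2 at 0.48 and 0.06 TPM. These 4 were lower in replicate 2, with intervals apart, while Cxcl15, a ligand known from mouse lung, was at 0.01 and 0.07 TPM. Intervals lay apart with replicate 1 above for 6.09% of protein-coding genes with a mean of at least 1 TPM. Cxcl5 and Cxcl2 did not reach that mean. Of the counts of Cxcl3, 90.2% (95% exact binomial interval 82.7% to 95.2%) fell in replicate 1, as did 87.9% (80.1% to 93.4%) of those of Cxcl5. For Cxcl2 the share was 90.9% (70.8% to 98.9%) of only 22 counts. Such intervals were computed only for some genes with few counts that were higher in replicate 1. They cover counting error only and do not measure the spread between replicates. The share of a typical gene was not computed. Cxcr2, the receptor of these ligands, was at 0.33 and 0.09 TPM. Neutrophil markers were sparse in both replicates, 5 genes summing to 5.70 and 4.84 TPM, with the defining marker Ly6g at 0 counts in both.

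Promoters of Cxcl1, Cxcl2 and Cxcl3, which lie close together on chromosome 5, are shown for a run of letters that they share. Each line gives the 150 bases before the start of transcription in RefSeq (GRCm38.p6), plus strand, at chr5:90891095-90891244 for Cxcl1, chr5:90903749-90903898 for Cxcl2 and chr5:90785951-90786100 for Cxcl3.
Cxcl1: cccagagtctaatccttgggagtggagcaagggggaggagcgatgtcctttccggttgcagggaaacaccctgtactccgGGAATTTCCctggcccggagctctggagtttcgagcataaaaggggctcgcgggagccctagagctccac
Cxcl2: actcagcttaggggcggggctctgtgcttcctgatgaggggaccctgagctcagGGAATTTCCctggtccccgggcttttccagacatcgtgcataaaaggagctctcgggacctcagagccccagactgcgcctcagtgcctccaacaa
Cxcl3: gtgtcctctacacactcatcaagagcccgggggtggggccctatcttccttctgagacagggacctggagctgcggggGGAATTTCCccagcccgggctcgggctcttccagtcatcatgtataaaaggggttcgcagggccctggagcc
The capitals mark GGAATTTCC, letters of the kind that NF-kappaB proteins bind. Both strands were searched in windows of 250 bases before and 50 after the start. This motif was present in 5 of the 43 chemokine genes in the RefSeq table (11.6%: Ccr3, Cxcl1, Cxcl10, Cxcl2 and Cxcl3) and in 0.381% of all 27025 genes. Cxcl1, Cxcl2 and Cxcl3 were shown because they share it and are among these 5 genes. Cxcl15, which lies between Cxcl3 and Cxcl1, was without it. The share of 11.6% depends on the choice of these letters. It also counts related genes from the same stretch of chromosome 5, whose matches may not be independent. The TATAAA box was found in 13 of 43 chemokine genes (30.2%) and in 15.7% of all genes. GAAANNGAA, letters of interferon response elements, was found in 8 of 43 (18.6%), among them the interferon-induced Cxcl9 and Cxcl10, and in 9.76% of all genes. A match is a run of letters and does not show binding in this tissue.

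**Figure D2:**
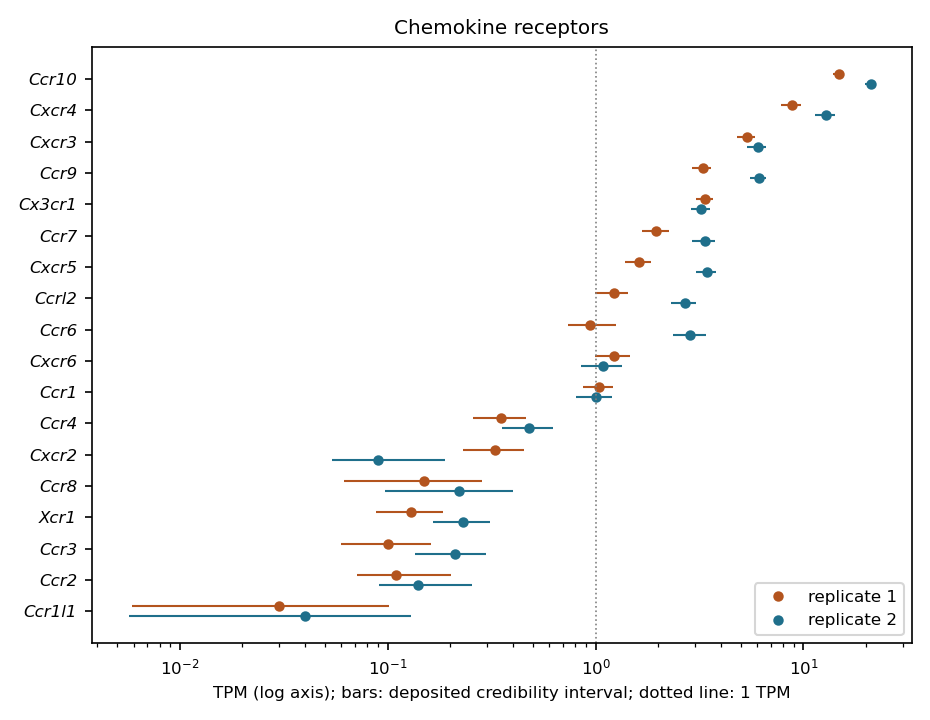
Levels of 18 chemokine receptors with counts, 1 row per gene, on a log TPM axis with points for the replicates, bars for deposited credibility intervals and a dotted line at 1 TPM. Ccr10 is highest at 14.8 and 21.1 TPM, and 11 receptors have a mean of at least 1 TPM.

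Receptor RNA was led by Ccr10 and Cxcr4. Ccr10, which IgA-secreting plasma cells carry in mucosa (ENSMUSG00000044052.3, chromosome 11, 101172997 to 101175443, minus strand), held 14.8 and 21.1 TPM in replicates 1 and 2 (17.9 ± 4.44 TPM, SD, n = 2). Plasma cell markers, 6 genes led by Igha, Jchain and Xbp1, summed to 8953 and 22080 TPM. Cxcr4, the broadly expressed receptor of Cxcl12 (ENSMUSG00000045382.6, chromosome 1, 128588199 to 128592293, minus strand), was at 8.82 and 12.9 TPM. Both receptors were higher in replicate 2 with intervals apart, as most protein-coding genes were.

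Receptors of T cells came next. Cxcr3, which effector T cells use to follow Cxcl9 and Cxcl10 (ENSMUSG00000050232.6, chromosome X, 101731535 to 101734269, minus strand), was at 5.34 and 6.04 TPM, with overlapping intervals. Ccr9, the receptor of lymphocytes that home to small intestine (ENSMUSG00000029530.11, chromosome 9, 123678439 to 123784330, plus strand), was at 3.29 and 6.10 TPM. Cxcr6, a receptor of resident T cells and innate lymphoid cells, was at 1.22 and 1.09 TPM. T cell markers were low too, the 8 genes in the table, led by Cd3e, Lck and Trac, summing to 33.3 and 45.5 TPM. Ccr4 and Ccr8, receptors of type 2 and regulatory T cells, stayed at or below 0.48 TPM in both replicates.

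Receptors of B cells, dendritic cells and macrophages were within a narrow range of low levels. Cx3cr1, the receptor of intestinal macrophages for fractalkine (ENSMUSG00000052336.6, chromosome 9, 119901616 to 120069879, minus strand), was at 3.37 and 3.23 TPM. Ccr7, which takes dendritic cells and T cells to lymph nodes, was at 1.96 and 3.36 TPM, Cxcr5, the follicular receptor of B cells, at 1.61 and 3.43 TPM, and Ccr6 at 0.94 and 2.86 TPM. These 3 were higher in replicate 2 with intervals apart, whereas those of Cx3cr1 overlapped. The 7 B cell markers, led by Cd79a and Cd79b, summed to 33.2 and 77.3 TPM. The 8 macrophage markers, led by C1qc, C1qb and C1qa, summed to 181 and 241 TPM. Ccrl2, which binds chemerin and does not signal, was at 1.22 and 2.70 TPM.

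Receptors for the inflammatory CC ligands were near or below the limit. Ccr1, a receptor of Ccl3 and Ccl5, was at 1.04 and 1.00 TPM, and Ccr2, the receptor of Ccl2, at 0.11 and 0.14 TPM, from 13 and 15 counts. Ccr3, the eotaxin receptor, was at 0.10 and 0.21 TPM. These 3 receptors thus stayed at or below 1.04 TPM in both replicates. Eosinophil markers, of which it is one, summed over 5 genes to 5.71 and 5.21 TPM, with Il5ra at 0 in both. Xcr1, the receptor of cross-presenting dendritic cells, was at 0.13 and 0.23 TPM, and its ligand Xcl1 had 0 counts in replicate 1 and 12 counts in replicate 2, with 3 counts equal to 0.205 TPM in replicate 1.

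Ligands were set beside their receptors in 31 textbook pairs, of which 13 had both sides detected. In 8 of the 13 the ligand was higher in both replicates, in 4 the receptor was, and in 1, Cxcl10 with Cxcr3, the order differed between replicates. On the log2(TPM + 1) scale Ccl25 exceeded Ccr9 by 4.19 ± 0.27 units (SD, n = 2), 20.5 and 24.1 times by TPM. Cxcl16 exceeded Cxcr6 by 3.84 ± 0.61 units and Cx3cl1 exceeded Cx3cr1 by 3.83 ± 0.89 units. The difference for Cxcl12 and Cxcr4 was smaller and closer between replicates, at 1.58 ± 0.10 units.

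Ccr10, Cxcr3 and Cxcr5 exceeded a ligand in both replicates. Ccl28 lay 2.62 ± 0.45 log2 units below Ccr10 and Ccl27a 0.69 ± 0.12 units below it. The Ccl27a value takes in all its transcripts, mostly ones with retained introns. Cxcl9 lay 1.17 ± 0.30 units below Cxcr3 and Cxcl13 lay 0.42 ± 0.22 units below Cxcr5. Of the Ccr7 ligands, Ccl21a lay 2.96 ± 0.36 units and Ccl19 0.90 ± 0.18 units above the receptor. For the pairs of Ccl11 with Ccr3 and of Ccl22 with Ccr4 only the ligand was detected. A ligand and its receptor are usually made by different cells, and RNA of whole tissue does not show which cells hold either.

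**Figure D3:**
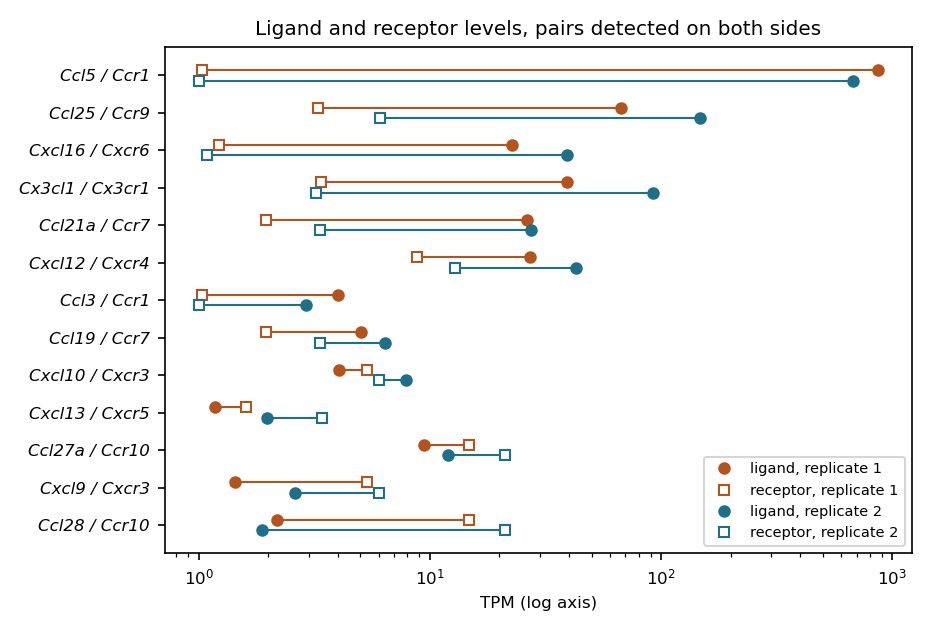
Ligand (filled circle) and receptor (open square) levels of the 13 pairs detected on both sides, on a log TPM axis, 1 line per replicate, sorted by the mean log2 difference. Ccl5 with Ccr1 has the widest span, and in the lowest 4 pairs the receptor is higher than the ligand.

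The replicates were then compared gene by gene for the 37 members with a mean of at least 1 TPM. The ratio was log2((TPM + 1) / (TPM + 1)), replicate 2 over replicate 1, minus that of the median protein-coding gene. Past 1 log2 unit, 8 of 37 genes (21.6%) were higher in replicate 1, against 5.76% of 11475 protein-coding genes, and 0 of 37 were higher in replicate 2, against 4.48%. Of these 8, Cxcl17, Cxcl3 and Ccl8 passed the filter on the mean only through replicate 1, being under 1 TPM in replicate 2. The same filter was used for all genes. The 8 genes were all ligands, and the median ratio was -0.38 over 26 ligands and -0.17 over 11 receptors, against 0 over all genes by construction. Over the 37 genes together it was -0.35. These counts describe 1 library against another and have no replicate check.

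Of the 8 ligands, 4 are inflammatory CC ligands and 2 are neutrophil CXC ligands. Centred ratios were -2.49 for Cxcl17 (-5.52 to -1.83 over the settings tried), -2.35 for Ccl8 (-3.18 to -1.68), -2.26 for Ccl20 (-2.61 to -1.59), -2.20 for Ccl4 (-2.65 to -1.53) and -2.00 for Cxcl3 (-3.48 to -1.34). Those of Cxcl1 (-1.35), Ccl5 (-1.02) and Ccl3 (-1.02) were smaller, and the last 2 just passed the limit. Cxcl17, Ccl8, Ccl20, Ccl4 and Cxcl3 also passed it without centring, whereas Ccl5, Ccl3 and Cxcl1 did not, at -0.35, -0.35 and -0.69. Ccl2 was at -0.90, and the other ligands of its group with a mean of at least 1 TPM were all in the list of 8. At the other end were Ccl6 at 0.81, Cx3cl1 at 0.54 and Ccl25 at 0.45. Pancreas and stomach RNA was high in the same replicate as these 8 ligands, with the sums given above, and its part in the result was not tested. With TPM rescaled to leave out the pancreas and stomach genes and with no centring, 6 of the 8 remained past the limit, Ccl5 at -0.80 and Ccl3 at -0.72 being the exceptions. In that setting 3.76% of all genes were past the limit with replicate 1 above and 8.78% with replicate 2 above. Such rescaling shifts all other genes of a library by 1 factor. It cannot show whether pancreas or stomach tissue brought ligand RNA with it.

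Markers of immune cells give the same scale for the cells that make or follow chemokines. The medians of their centred ratios were -0.33 for T cell, -0.36 for macrophage, -0.37 for dendritic cell, -0.72 for neutrophil, 0.43 for natural killer and innate lymphoid and 0.50 for B cell markers. None of 8 T cell, 5 dendritic cell or 2 neutrophil markers with a mean of at least 1 TPM lay past 1 log2 unit. Of 7 macrophage markers 1 did, Adgre1 at -1.20, with replicate 1 above. Of 5 B cell markers 1 did, Pax5 at 1.05, with replicate 2 above. Among all protein-coding genes with that mean, 5.76% lay past the limit with replicate 1 above and 4.48% with replicate 2 above. Lists of 2 to 8 genes are too short to be set against such shares, so these counts cannot decide whether the markers differ from all genes. The dendritic cell markers counted here include Ccr7, which is also among the chemokine receptors compared above. Smooth muscle markers were at -0.93 over 5 genes and fibroblast markers at -0.58 over 6 genes. Of the smooth muscle markers 1 was past the limit, Des at -1.14, with replicate 1 above, and of the fibroblast markers 0 were. Mesenteric fat markers were at -1.57 over 4 genes, of which 3 were past the limit with replicate 1 above. Of these genes Cfd was at 62.6 and 28.7 TPM and Plin1 at 3.20 and 0.93 TPM, whereas Cidec was at 125 and 283 TPM, so the summed level of the 6 fat genes ran the other way, at 193 and 314 TPM. The 4 mast cell markers had a median of 0.09, with 1 past the limit toward replicate 1. The part of fat or mast cell RNA in the ligand ratios was not tested.

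**Figure D4:**
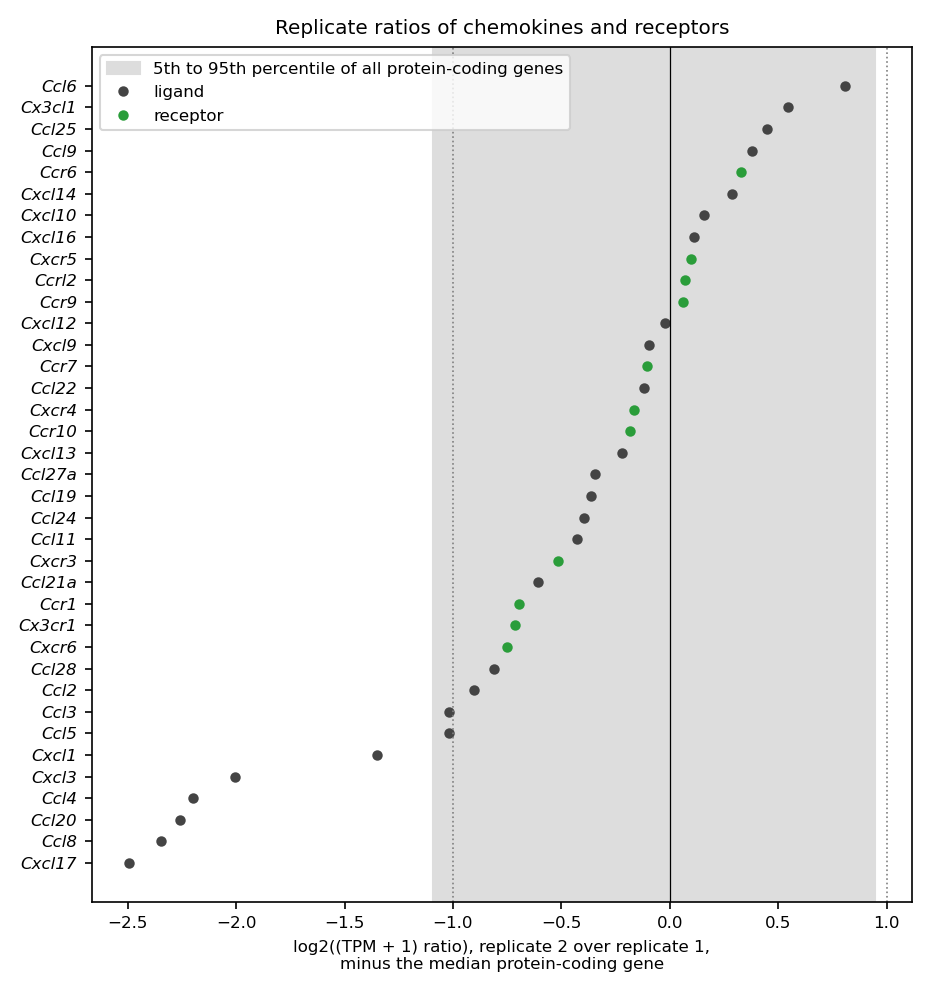
Centred log2 ratios of replicate 2 over replicate 1 for the 37 members with a mean of at least 1 TPM. Grey band, 5th to 95th percentile of all protein-coding genes (-1.09 to 0.94); dotted lines, 1 log2 unit in either direction. Ligands (black) spread to -2.49, and receptors (green) lie between -0.75 and 0.33.

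Deposited credibility intervals, which are not centred, lay apart for 17 of the 37 genes with replicate 2 above and for 7 with replicate 1 above, and overlapped for 13. For all protein-coding genes the shares were 81.1% in either direction, 75.0% with replicate 2 above and 6.09% with replicate 1 above. The 7 were Ccl5, Ccl20, Ccl4, Ccl8, Cxcl1, Cxcl17 and Cxcl3. Of the 8 ligands named above, only the intervals of Ccl3 overlapped. Among receptors the intervals of 7 lay apart, all with replicate 2 above, and 4 overlapped (Cxcr3, Cx3cr1, Cxcr6 and Ccr1).

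Transcript use was read from the deposited share of each gene's TPM that belongs to each transcript. Of the 32 detected genes, 17 had 1 transcript with counts and 15 had more. In 7 of the 15 the major transcript held over 90% in both replicates, among them Ccl5-201 with 99.3% and 99.5%, Cx3cl1-201 with 98.7% and 99.3% and Ccl25-201 with 97.3% and 95.5%. Cxcl12, which is known for splice forms that differ at the end of the protein, was held mostly by Cxcl12-202 at 89.5% and 89.2%. Cxcl12-201 took 6.01% and 6.88% and the third transcript took 4.16% and 3.65%. These shares were close in the replicates. By counts, which are not corrected for length, Cxcl12-202 held 76.5% and 75.3%.

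In other genes the coding transcript was not the main one or the split was unclear. Ccl6-202, annotated as retaining an intron, took 76.5% and 72.6% of Ccl6, and the coding Ccl6-201 took 17.1% and 26.2%. Ccl27a was spread over transcripts with retained introns, of which Ccl27a-211 took 25.0% and 34.0% and Ccl27a-212 took 29.5% and 16.9%. Cxcr4 was divided between Cxcr4-202 at 63.9% and 53.4% and Cxcr4-201 at 36.1% and 46.6%, and by share of counts Cxcr4-202 held only 38.0%. The fractalkine receptor transcript Cx3cr1-202 took 59.1% and 86.3%. Ccr9-201 took 39.0% and 12.7% of Ccr9, whose counts were mostly divided among 4 coding transcripts of similar length.

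**Figure D5:**
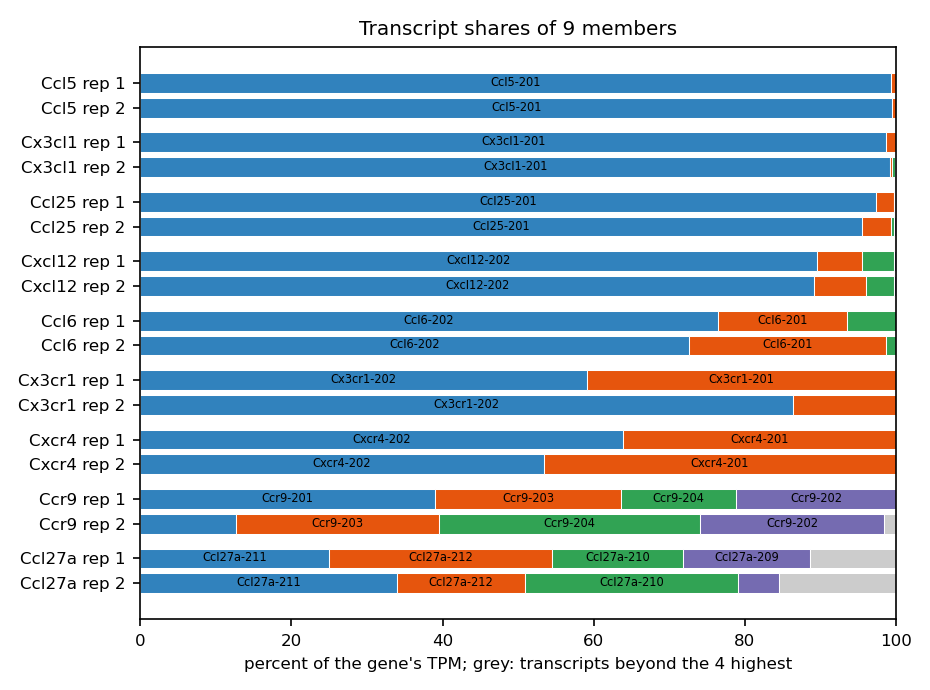
Share of the gene's TPM by transcript for 9 members, 1 bar per replicate, with transcript names printed where there is room. A single transcript holds over 90% of Ccl5, Cx3cl1 and Ccl25 and somewhat less of Cxcl12, whereas Cxcr4, Ccr9 and Ccl27a are divided.

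Most members lie in clusters, and neighbours differed widely in level. With a gap of at most 1 Mb between neighbours, 40 of the 57 genes fell into 10 clusters. On chromosome 11, the cluster of Ccl5, Ccl9, Ccl6, Ccl3 and Ccl4 (83525778 to 83664683) had means from 1.99 TPM to 772 TPM, with 4 of 5 genes detected. The nearby cluster of Ccl2, Ccl7, Ccl11, Ccl12, Ccl8 and Ccl1 (82035571 to 82305690) reached 11.1 TPM, with 2 of 6 detected. On chromosome 8, Cx3cl1 at a mean of 65.6 TPM lies between Ccl22 and Ccl17 (94745590 to 94812036), and Ccl17 had a mean of only 0.635 TPM. On chromosome 9, Ccr9, Cxcr6 and Ccr1 were detected and their neighbours Xcr1, Ccr1l1, Ccr3 and Ccr2 were not. Some exons lie opposite another gene, covering 18.8% of the exon bases of Ccr9 (AC165425.1) and 18.7% of those of Xcl1 (Gm20743). The share was 18.3% for Cxcl16 (Zmynd15) and 5.91% for Cxcl10 (Art3). Ccr9 also shares 2.62% of its exon bases with Gm17200 on the same strand. The reads are stranded, but whether counting used the strand is not given in the sources used here.

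Genes listed for the machinery on which chemokines act were mostly detected. Of 41 genes, picked by hand and mostly for capture, cleavage and signalling, 35 were detected, against 49.3% of all protein-coding genes. The list holds signalling genes that are not particular to chemokines, such as Gnb1, Gnb2 and Rac1. Its share is therefore no test against all genes. The list also held the ligand genes Pf4, Ppbp, Rarres2 and Mif, which the rule does not take, and Ccrl2, which is 1 of the 57 members. Of the 36 with a mean of at least 1 TPM, 2 lay past 1 log2 unit with replicate 2 above, Dpp4 at 1.85 and Cd74 at 1.57, and 0 with replicate 1 above, against 4.48% and 5.76% of all genes. The median centred ratio of the list was 0.15. The highest were Cd74, the invariant chain that also serves as the receptor of Mif, at 722 and 3399 TPM, and the G protein beta subunits Gnb1 at 553 and 1309 TPM and Gnb2 at 437 and 1061 TPM. Dpp4, an enterocyte protease that trims the start of several chemokines, was at 10.3 and 63.4 TPM. The atypical receptors, which bind chemokines without G protein signalling, were named as a class after their values were seen. Ackr3, which takes up Cxcl12, was at 18.1 and 17.8 TPM, close to the mean of Ccr10, and Ackr1 was at 6.37 and 9.05 TPM. Ackr4, which takes up Ccl19, Ccl21 and Ccl25, was at 1.11 and 1.99 TPM, and Ackr2, a scavenger of inflammatory CC ligands, at 0.32 and 1.15 TPM.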

How the data were processed

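The members and lists were chosen with earlier results of these data known. The deposited tables give, per the file headers, expected counts (estimated fragments per gene), TPM, FPKM, a posterior mean TPM, credibility intervals and, for transcripts, the percent of the gene's TPM. The assembly named beside the deposited tables is mm10 with annotation release M4; no source used here gives the aligner or the quantifier. Symbols and coordinates came from GENCODE M21 (GRCm38, the same assembly) by stable gene identifier. Python 3.11.15 with pandas 2.3.3 computed levels, ratios with a pseudocount of 1 and shares, and scipy 1.17.1 the exact intervals. Alternatives used the deposited FPKM values, scaled expected counts (edgeR 4.0.16 TMM and DESeq2 1.42.0 size factors in R 4.3.3), other minimums and the 96 spike-ins. The pseudocount understates ratios of low genes. Coding sequences came from GENCODE M21 and promoters from RefSeq, whose table matched 43 of the 57 members. Every member with a mean of at least 1 TPM is named; others are named at 0 counts or in a described pair, and of each list the 3 highest genes, with other names chosen after values were seen. Some genes are counted in sums and totals but not reported here by name.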

Additional observations from a re-analysis of the deposited data

Results flagged for a closer look

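Counts were seen in genes outside the rule that are relatives or near copies of its members, above the 3 counts that a count of 0 allows. Cxcl11, an interferon-induced ligand of Cxcr3 that the annotation classes as a polymorphic pseudogene, had 3 expected counts in replicate 1 and 45 in replicate 2. Gm21541, which shares 76-base words with Ccl21a and Ccl21b, had 134.5 and 77.19 expected counts, against 850 and 705 for Ccl21a itself. Gm10591, another copy of this kind, had 6.5 in replicate 2. Of the copies that share words with Ccl27a, Gm13306 had 9.81 expected counts in replicate 1 and Gm20878 had 4.73 and 12.23. Gm2564, which shares words with Ccl19, had 11.8 and 21.43. How the quantifier divided reads between these copies was not tested.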

How the results depend on the processing

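No paired analysis was possible because there is 1 group. A minimum of 5 TPM left 14 members detected (24.6%, against 30.4% of all protein-coding genes), and each replicate alone gave 35 to 36. Without Ccl5 and Ccr10, means of summed TPM were 401 for ligands and 37.3 for receptors, and their log2 ratio was 3.41, against 4.17 to 4.70 from each replicate alone. The 0 members higher in replicate 2 became 2 with no filter (7.42% of all genes), 4 with no centring (24.5% of all genes higher in replicate 2 and 2.74% in replicate 1), 1 with spike-in centring (10.2%) and 1 with TPM rescaled without pancreas and stomach genes (8.78%). The 8 higher in replicate 1 became 5 with no centring and 3 at a mean of at least 5 TPM, where only 17 members were tested and 5.58% of all genes passed, and 6 to 9 in the other settings. At a mean of at least 5 TPM, intervals apart numbered 9 with replicate 2 above and 3 with replicate 1 above. Ccl4 and Ccl20 passed under every setting, and Ccl8, Cxcl3 and Cxcl17 under all in which they were tested. However, Ccl4 and Ccl20 met the mean of at least 5 TPM only through replicate 1, being at 2.12 and 3.39 TPM in replicate 2. Ccl8, Cxcl3 and Cxcl17 met the mean of at least 1 TPM in the same way. All settings used the same 2 libraries, so these passes are not separate support. The direction of single ratios did not reverse for any member past the limit in any setting. Depth limits the lowest members, 14 of 57 having under 10 counts in a library.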
